A study of Mus musculus with 7 samples.

Results

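The 10 genes described here encode enzymes that make NAD and NADP in mouse cells or act beside that synthesis, with Nmrk2, the nicotinamide riboside kinase of skeletal muscle, at their centre. The genes were Nmrk1, Nmrk2, Nampt, Nmnat1, Nmnat2, Nmnat3, Nadk, Nadsyn1, Nnmt and Nnt. Every non-control probe carrying one of these names, or the current symbol of its RefSeq accession, was taken, which gave 13 probes for the 10 genes out of 39429 probes on the array. Nmrk2 was selected on its own measured difference between the genotypes on these arrays, so its values are a description without a test. The other 9 genes were taken for their place in the pathway, with earlier results of these arrays known.

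The study asked which muscle genes are altered before motor dysfunction begins in spinal and bulbar muscular atrophy (SBMA), an inherited polyglutamine disease of motor neurons and muscle. RNA of the quadriceps muscle was hybridised to 7 one-dye (Cy3) Agilent mouse arrays, 4 from wild type (WT) mice and 3 from AR113Q mice, each array holding 1 mouse. All animals were C57BL/6 mice of 3 months (90 days), without a labelled treatment, and the design text calls the mutants AR113Q-NCD. AR113Q mice carry a humanized knock-in allele with an expanded CAG repeat under the endogenous promoter, and therefore in every tissue that uses the gene, whereas WT mice carry the mouse allele. The study's results text describes a knock-in control with a short repeat, but its legends and the sample labels name WT, and the labels were followed.

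NAD carries electrons in glycolysis and respiration and is also consumed as a substrate by sirtuins, PARP enzymes and NAD glycohydrolases, so that cells rebuild it continuously. Nampt and the nicotinamide riboside kinases Nmrk1 and Nmrk2 each make nicotinamide mononucleotide, from nicotinamide and from nicotinamide riboside respectively, and the Nmnat enzymes join it to an adenylate to give NAD. Nmrk2 is known as a kinase of striated muscle, also named muscle integrin binding protein, whereas Nmrk1 is widely expressed. Nadsyn1 closes the routes that start from tryptophan or nicotinic acid, Nadk phosphorylates NAD to NADP, Nnt links NADH to NADPH at the mitochondrial inner membrane, and Nnmt methylates nicotinamide and removes it from salvage.

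The probes that carry the findings are 60 bases long, and the leading 30 bases of each are given 5′ to 3′ as the array files list them, in lower case, with the mm9 position of the whole probe from the array annotation. They are shown because every level below is the signal of that probe alone, and the several Nnt probes did not give the same reading.
Nmrk2, chr10:80662033-80662092, minus strand: ctggacagcagggcctgagatgttctgact
Nmrk1, chr19:18725771-18725830, plus strand: tggattcagatacttgaagggctattctga
Nadsyn1, chr7:150981777-150981836, minus strand: ggtggccggcacagcctgaccagatcttag
Nnt, chr13:120124335-120124394, minus strand: gtattaagtgcgcttgaatggaatgcaacc
Nnt, chr13:120142585-120142644, minus strand: ggagggaccaacattgttctgatgtggagg
Nnt, no position given: gagacatttttgggtttcagaactggcaga
Which exon each probe lies in was not determined, since no gene models of mm9 were used here.

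Signals are log2 of the background-subtracted intensity after quantile normalization. Probes detected on fewer than 3 of the 7 arrays, by the scanner software's flag for a signal well above background, were set aside, which left 20991 probes and 16577 genes, each represented by its brightest kept probe. A gene passed the test at an adjusted p of at most 0.05 (limma, Benjamini-Hochberg over all kept probes), and it was a differentially expressed gene (DEG) if its log2 fold change was also at least 1 in size. Across all genes 43.5% passed (21% higher and 22.5% lower in AR113Q muscle), 24.3% were DEGs (11.2% higher and 13.1% lower), and in 49.3% the WT and AR113Q arrays did not overlap. The median log2 fold change over all genes was -0.01. Between 47.6% and 55.8% of probes were above background per array, no spot was saturated, and arrays correlated at 0.969 to 0.987 within and at 0.908 to 0.943 between the genotypes. Only slide 2, with WT 2 and AR113Q 1, held both genotypes, so its difference, from 1 array each, is given beside the members and the main genes of the other groups. In a fit with slide as a fixed effect, only slide 2 informs the genotype difference. A gene's own spread there rests on WT 3 and WT 4 alone, which shared slide 4. A call lost in that fit therefore says little about the gene. The study states that its mice were male.

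Nmrk2 gave a strong signal in WT muscle and a faint one in AR113Q muscle. Its log2 signal was 15.75, 15.28, 15.37 and 15.05 in the 4 WT mice, and 7.58, 5.30 and 7.55 in the 3 AR113Q mice. The groups lay far apart, and AR113Q 2 was lower than the other two mutants. In intensity before normalization the WT arrays read 32198 to 40850, and the AR113Q arrays 214, 52.8 and 218, each still flagged as well above background beside local backgrounds of 29 to 40. The means were 15.36 ± 0.29 (SD, n = 4) and 6.81 ± 1.31 (SD, n = 3), a difference of -8.55 on the log2 scale (SE 0.53, 95% interval -9.76 to -7.34), or 376-fold. On slide 2 the difference was -7.70, and without AR113Q 2 it was -7.80. None of the 16577 genes showed a larger decrease. The values the authors normalized gave a difference of -7.04, with WT mice at 14.87 to 15.64 and AR113Q mice at 8.46, 7.72 and 8.40.

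**Figure D1:**
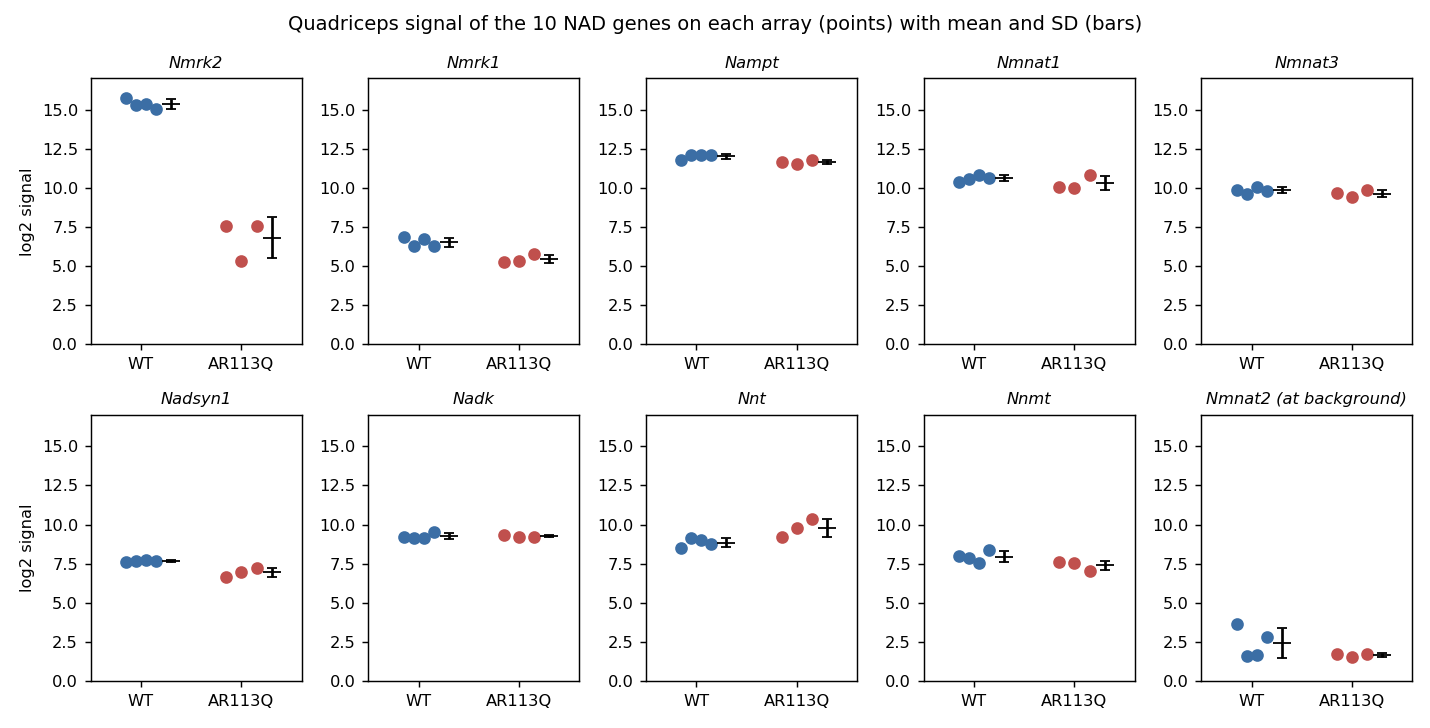
Log2 normalized signal (vertical axis) of the 10 NAD genes on each array, WT in blue and AR113Q in red, with the mean and SD of each genotype as black bars. Nmrk2 fell from 15.36 to 6.81 on average, while each of the other tested genes differed by 1.06 or less, and Nmnat2 was not above background on any array.

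Markers of the tissue are given beside this difference, because in whole muscle fewer cells of a type and less RNA per cell cannot be told apart. All 10 skeletal myofiber markers, such as Ckm and Myh4, were above background on all 7 arrays. Their summed signal was 1229000 to 1378000 in WT and 1019000 to 1219000 in AR113Q mice, and 3 of the 10 passed the test, all lower, their median difference in log2 signal being -0.45. Of 7 adipocyte markers 5 were DEGs, all lower (median -1.39), with sums of 61110 to 103300 in WT and 38590 to 46640 in AR113Q mice. Of 6 fibroblast markers 4 passed, all lower (median -1.67), while their sum, 76280 to 91560 in WT and 72160 to 97370 in AR113Q mice, overlapped. Most of that sum was Dcn, which read 0.41 higher in AR113Q muscle without passing (limma adjusted p = 0.0706). Col3a1, Col1a1 and Lum were DEGs at -4.62, -3.27 and -2.39. Of 7 macrophage markers 2 passed, both lower, with sums of 8760 to 14560 and 6437 to 9283, and of 5 Schwann cell markers 1 passed in each direction, with sums of 1901 to 4286 and 1255 to 1758. Of 6 endothelial markers 1 passed, higher in AR113Q muscle, with sums of 2641 to 2853 and 2175 to 3119. None of the slow myofiber, neutrophil or erythroid markers passed, with sums of 1053 to 32360 and 627 to 81210, of 121 to 9155 and 1102 to 2501, and of 44410 to 214200 and 45190 to 57710, and Ly6g was not kept. Against 43.5% of all genes passing and 24.3% DEGs, the adipocyte and fibroblast lists lay above the array as a whole, whereas the myofiber, macrophage, Schwann cell and endothelial lists had smaller shares of passing genes. Both passing macrophage markers were DEGs, and 2 of 7 is a share above the 24.3% of all genes. The part of these marker differences in the Nmrk2 signal was not tested.

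Nmrk1, the widely expressed kinase with the same substrate, was also lower in AR113Q muscle, by far less. Its signal was 6.85, 6.28, 6.70 and 6.29 in WT mice and 5.29, 5.34 and 5.78 in AR113Q mice, with every mutant below every control. The log2 fold change was -1.06 (SE 0.21, 95% interval -1.55 to -0.57, limma adjusted p = 0.00491), 2.09-fold lower, and -0.99 on slide 2. Nmrk1 was the only DEG among the 8 tested members other than Nmrk2, or 12.5% against 24.3% of all genes. The fold threshold was met narrowly. With normexp background correction the difference was -0.35, and in the table normalized by the authors it was -0.22. Leaving out WT 1 gave -0.95, leaving out AR113Q 1 -0.97 and leaving out AR113Q 2 -0.996, and in each of these cases the test was still passed while the fold change was too small for a DEG. With slide as a fixed effect, where slide 2 alone informs the comparison and none of the 16577 genes passed (6158 had an unadjusted p under 0.05 in limma), Nmrk1 had an adjusted p of 0.132.

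Nampt, the rate-limiting enzyme of nicotinamide salvage, did not pass the test. It read 11.79, 12.09, 12.09 and 12.07 in WT mice and 11.64, 11.53 and 11.79 in AR113Q mice, the highest mutant lying just under the lowest control. The log2 fold change of -0.36 (95% interval -0.72 to -0.0041) had an adjusted p of 0.0930 in limma and was -0.46 on slide 2. With normexp correction and with the authors' values it passed, at limma adjusted p of 0.0463 and 0.0362 and nearly the same size.

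The 3 Nmnat genes, whose enzymes complete NAD in different compartments, gave no passing difference. Nmnat1, the nuclear enzyme, was 10.40, 10.58, 10.85 and 10.64 in WT mice and 10.06, 10.01 and 10.81 in AR113Q mice, so that AR113Q 3 lay within the WT range. Its log2 fold change was -0.33 (95% interval -0.85 to 0.20, limma adjusted p = 0.282), -0.52 on slide 2, and -0.58 without AR113Q 3, with an adjusted p of 0.0311. Nmnat3, described as the mitochondrial enzyme, was 9.89, 9.60, 10.05 and 9.81 against 9.64, 9.41 and 9.84, with a log2 fold change of -0.21 (95% interval -0.61 to 0.20, limma adjusted p = 0.372), and on slide 2 it turned to 0.042. The single Nmnat2 probe, for the form known from neurons, was not above background on any array and was not tested.

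Nadsyn1, the glutamine-dependent NAD synthetase, passed the test as lower in AR113Q muscle but not by enough to be a DEG. It read 7.60, 7.68, 7.75 and 7.64 in WT mice and 6.65, 6.97 and 7.20 in AR113Q mice. The controls lay close together and no mutant reached them. The log2 fold change was -0.72 (SE 0.17, 95% interval -1.11 to -0.34, limma adjusted p = 0.00985), and -1.02 on slide 2. It was -0.34 with normexp correction and -0.25 in the authors' table, and passed in both. With slide as a fixed effect, where no gene passed, its limma adjusted p was 0.0876.

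Nadk, the cytosolic NAD kinase, showed no detectable difference. Its brightest probe read 9.19, 9.13, 9.12 and 9.55 in WT mice and 9.33, 9.19 and 9.22 in AR113Q mice, a log2 fold change between -0.37 and 0.37 by its 95% interval (limma adjusted p = 0.998), and 0.20 on slide 2. The other Nadk probe was above background on 2 of the 7 arrays and was not tested. Nadk2, the mitochondrial kinase, passed as higher by 0.47 (limma adjusted p = 0.0478).

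Nnt, the mitochondrial nicotinamide nucleotide transhydrogenase, was the only member that passed as higher. Its brightest probe read 8.47, 9.17, 9.02 and 8.75 in WT mice and 9.20, 9.79 and 10.38 in AR113Q mice. Every mutant lay above every control, but AR113Q 1 exceeded WT 2 by only 0.03, and both were on slide 2. The log2 fold change was 0.94 (SE 0.29, 95% interval 0.26 to 1.61, limma adjusted p = 0.0321), and the test was no longer passed without WT 1, WT 4, AR113Q 2 or AR113Q 3, where the difference was 0.64 to 0.94 and limma's adjusted p 0.0696 to 0.0822. The other 2 Nnt probes, whose sequences differ as printed above, were not above background on any of the 7 arrays, so only the probe at chr13:120124335-120124394 gave a reading. Mice of the C57BL/6J substrain are known to carry a deletion inside Nnt. The labels give the strain as C57BL/6, and the study's animal methods name a C57BL/6J background for its lines. The place of these probes relative to that deletion was not tested. Markers of slow myofibers varied widely from mouse to mouse and moved with Nnt in part. Their summed signal was 1053, 30890, 32360 and 1442 in WT 1 to 4 and 1318, 627 and 81210 in AR113Q 1 to 3, with the highest sum in the mouse with the highest Nnt signal and the higher WT sums in the controls with the higher Nnt signals. AR113Q 2 had the lowest sum and a high Nnt signal. The part of fiber type in the Nnt difference was not tested.

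Nnmt, which diverts nicotinamide by methylation, read 8.01, 7.86, 7.52 and 8.37 in WT mice and 7.58, 7.56 and 7.06 in AR113Q mice. The groups overlapped, and the log2 fold change of -0.54 (95% interval -1.08 to 0.0037) had a limma adjusted p of 0.0980 and was -0.28 on slide 2.

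**Figure D2:**
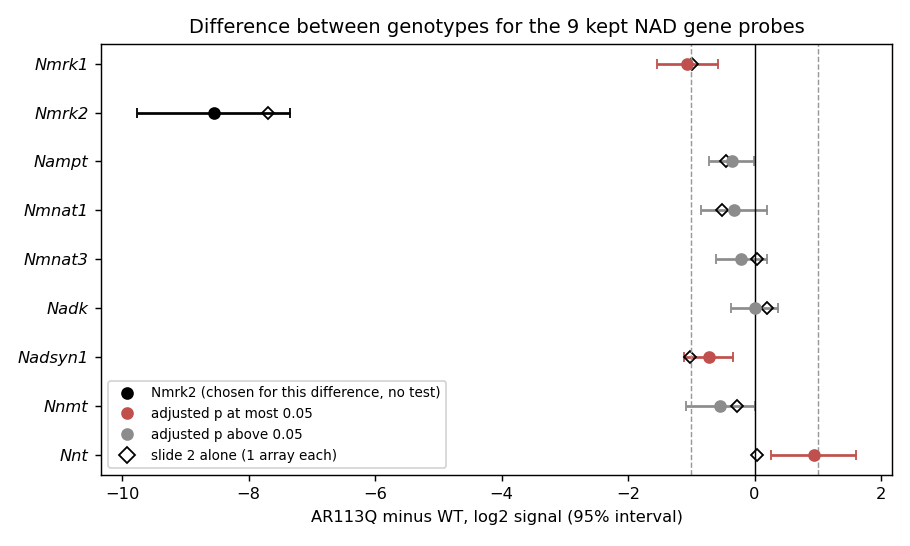
AR113Q minus WT log2 signal (horizontal axis) with its 95% interval for the 9 kept NAD gene probes. Dashed lines mark a log2 fold change of 1 in size and open diamonds the difference on slide 2 alone, where Nnt was at 0.03 and Nadsyn1 at -1.02.

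Across the 8 tested members other than Nmrk2, 1 passed as higher and 2 as lower, 37.5% against 43.5% of all genes. In 4 of the 8 the genotypes did not overlap (49.3% of all genes), and their median log2 fold change was -0.34 (-0.01 over all genes). The share of passing genes among the members was therefore not above that of the array as a whole.

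The promoter of Nmrk2 is printed because its decrease was the largest of the 16577 genes. RefSeq's table for GRCm38.p6 held promoters for 8 of the 10 genes. The 250 bases before the start of Nmrk2 lie at chr10:81202038-81202287 on the minus strand of that build, with a G and C share of 58.8%, and capitals mark matches to CANNTG, the E-box bound by myogenic factors, and to TATAAA.
Nmrk2 promoter: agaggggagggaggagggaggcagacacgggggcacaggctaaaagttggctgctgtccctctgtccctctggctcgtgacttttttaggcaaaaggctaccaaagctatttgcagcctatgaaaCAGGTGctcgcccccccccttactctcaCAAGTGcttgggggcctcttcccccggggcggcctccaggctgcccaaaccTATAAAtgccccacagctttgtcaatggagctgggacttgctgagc
The 2 E-boxes begin 125 and 97 bases before the start, and TATAAA begins 46 bases before it. On both strands, CANNTG was found in 66.2% and TATAAA in 12.4% of 32851 promoters of the same length. None of the 10 member windows held a CArG box (1.5% of all promoters), a MEF2 motif (0.5%) or the steroid receptor half-site AGAACA (16.1%). Among these windows TATAAA was found only before Nmrk2. These are letter matches in a short window.

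The neighbours of Nmrk2 on chromosome 10 did not share its decrease. Dapk3 had a log2 fold change of 0.68 (limma adjusted p = 0.0584), the noncoding Atcayos one of -0.40 (0.337), and Zfr2 was a DEG, higher by 1.001 (limma adjusted p = 0.00683), while Atcay was not kept. Since Nmrk2 had the largest decrease and profile distances were not scaled, its nearest profiles were bound to be other large decreases. The list that follows is thus a description. The 5 genes with the array profile nearest to Nmrk2, by the root mean square distance over the 7 arrays from each gene's WT mean, were found among 16576 genes. They were Cited4, a CBP/p300-binding transcriptional coactivator, at a distance of 1.77 and a difference of -6.09, the lectin Cd209f at 1.92 and -5.85, 2310065F04Rik at 2.20, Mir1a-1hg at 2.26 and Tinag at 2.32. The distances of the last 3 rest in part on signals not well above background, which 2310065F04Rik had on 1 of the 3 AR113Q arrays. Mir1a-1hg, the host transcript of a muscle microRNA, was well above background on no AR113Q array and at least 22.6-fold lower there, and Tinag likewise at least 10.6-fold lower, against the lowest signal well above background on each array.

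A further 89 genes in 7 NAD-related groups were examined, of which 78 were tested. Of these, 15 passed as higher and 22 as lower (47.4% against 43.5% of all genes), and 7 were DEGs upward and 10 downward (21.8% against 24.3%). The median log2 fold change was -0.14. The lower count includes Tnks2, whose probes disagreed. Since no gene passed with slide as a fixed effect, the calls below are all lost there, and the differences on slide 2 are given. Of the 15 DEGs named below by rule, 7 stayed DEGs with normexp correction and 6 with the authors' values, and in both settings all 15 kept their direction and passed the test. Without AR113Q 3, Parp14 (-0.95), Prkab2 (-0.93) and Got1 (0.92) were under the fold threshold.

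In the de novo and nicotinic acid routes, 1 of 5 tested genes passed, 20% against 43.5% of all genes, and the median was -0.56. Qprt, which turns quinolinic acid into a mononucleotide, was a DEG with a log2 fold change of -1.34 (SE 0.26, limma adjusted p = 0.00388) and -1.04 on slide 2. Its signal was 6.32, 6.10, 5.69 and 6.23 in WT mice and 5.06, 4.96 and 4.19 in AR113Q mice, without overlap. It was no DEG with normexp correction (-0.46) or in the authors' table (-0.27). Naprt, the nicotinic acid counterpart of Nampt, had a value of -0.56 and did not pass. Tdo2, Ido1, Ido2, Kynu and Acmsd were not kept.

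Among transporters of precursors and NAD, 2 of 5 tested genes passed, both lower, a share of 40% that was not above the 43.5% of all genes. Slc29a2, an equilibrative nucleoside transporter, was a DEG at -2.38 (SE 0.26, limma adjusted p = 0.000382), 5.22-fold lower, with WT mice at 7.13 to 7.14 and AR113Q mice at 4.73, 4.17 and 5.35, and with -2.41 on slide 2. It was no DEG with normexp correction (-0.99) or in the authors' table (-0.65). Slc29a1, the other equilibrative transporter kept, had a value of 0.13 and overlapped between the genotypes. Slc25a51, the mitochondrial NAD carrier, passed at -0.48 (limma adjusted p = 0.0389) by its brightest probe, while its other kept probe read 0.46 (0.0505).

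In nucleotide breakdown, repair and mitochondrial NAD phosphorylation, 3 of 10 tested genes passed, all higher, which at 30% was below the 43.5% of all genes. Nt5c2, a cytosolic nucleotidase that dephosphorylates purine nucleotides, was a DEG at 1.85 (SE 0.19, limma adjusted p = 0.000309), 1.85 on slide 2, and its other probe read 1.33 (0.000577). In the authors' table it was 0.93 and no DEG. Nt5e, the ecto-nucleotidase CD73, and Nadk2 passed at 0.64 and 0.47. Naxe and Naxd, which repair hydrated NADH, did not pass.

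Of the NAD-consuming enzymes, the longest of the 7 lists, 17 of 26 tested genes passed, or 65.4% against 43.5% of all genes, with 8 higher and 9 lower by their brightest probes and a median of -0.01. Their share of DEGs, 8 of 26 or 30.8%, was nearer to the 24.3% of all genes. The deacetylase Sirt1 was a DEG at 1.35 (SE 0.14, limma adjusted p = 0.000305), with WT mice between 8.39 and 8.48 and AR113Q mice at 9.90, 9.77 and 9.71, and 1.46 on slide 2. Sirt7, also a nuclear sirtuin, passed at 0.96 and the mitochondrial Sirt4 at -0.67. Sirt2, Sirt3, Sirt5 and Sirt6 did not pass. Parp3, a nuclear mono-ADP-ribosyltransferase of DNA repair, was a DEG at -2.47 (SE 0.37, limma adjusted p = 0.00140) and -3.08 on slide 2, and Parp16 and Parp14 were DEGs at -1.36 and -1.11 (-1.53 and -0.77 on slide 2). Parp1, the main poly-ADP-ribose polymerase, passed at -0.85. Upward, tankyrase (Tnks) was a DEG at 1.84 and Parp4 at 1.36 (2.02 and 0.98 on slide 2). Parp16, Parp14, Tnks and Parp4 were no DEGs with normexp correction (-0.79, -0.75, 0.82 and 0.80) or in the authors' table (-0.58, -0.63, 0.57 and 0.60). The other DEGs of this group, named after their values were seen, were Art5 at 1.26 and Tiparp at 1.16 (1.28 and 0.46 on slide 2). Cd38, the NAD glycohydrolase, differed by 0.09 (95% interval -0.28 to 0.46, limma adjusted p = 0.689).

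Probes of a gene did not always read alike in this group. Tnks2 passed at -0.94 by its brightest probe and was a DEG at 1.53 by its other one, so no direction is given for it. The other probe of Tnks read 0.61 and that of Parp16 -0.60, the latter not passing (limma adjusted p = 0.305), whereas both probes of Parp4 and of Art5 gave DEGs. The other probe of Tiparp passed at 0.97 with overlapping groups and was no DEG, that of Parp6 passed at -0.63 where the brightest read 0.10, and that of Sirt6 read 0.34 against -0.11, neither of them passing. The other probe of Sirt7 was a DEG at 1.33 (limma adjusted p = 0.000913), and that of Sirt4 read -0.52 and did not pass (0.0668). Art3 passed at 0.84 by its brightest probe and was a DEG at 1.11 by its other one.

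**Figure D3:**
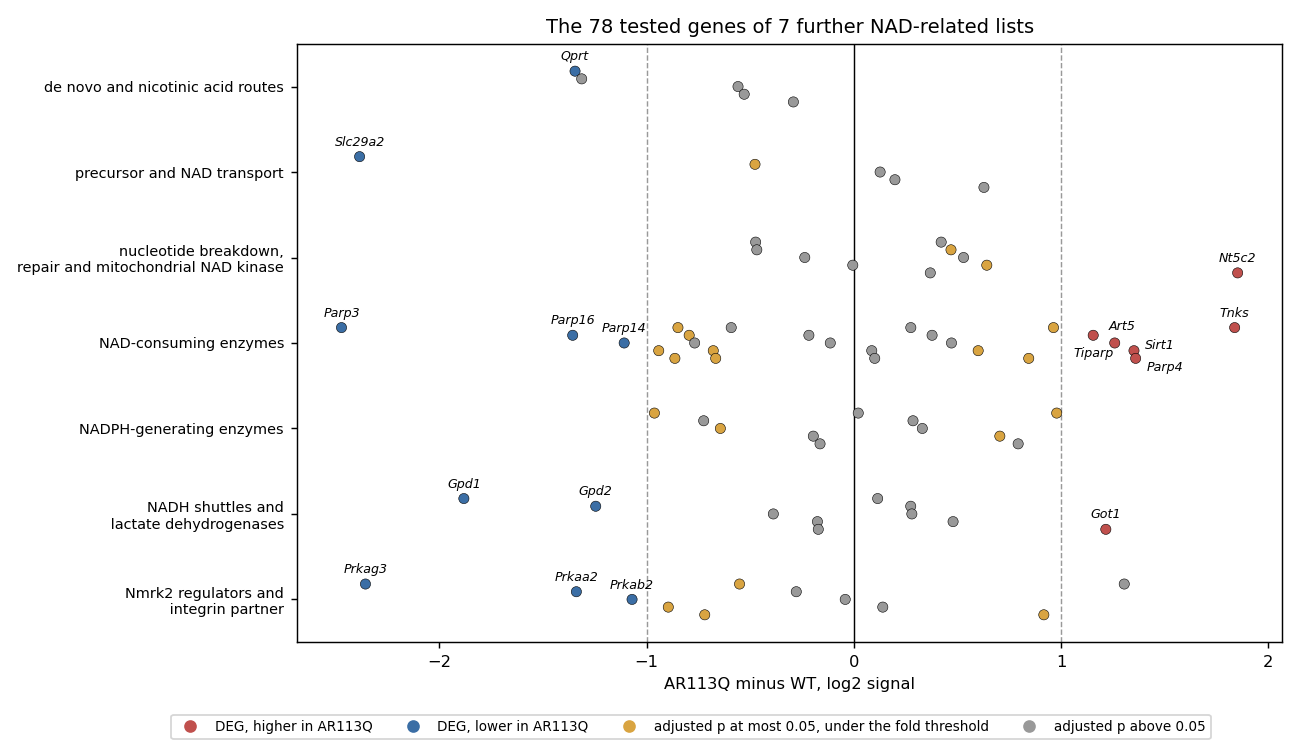
AR113Q minus WT log2 signal (horizontal axis) of the 78 tested genes in the 7 NAD-related groups, 1 point per gene by its brightest probe, with dashed lines at a log2 fold change of 1 in size. DEGs are named and lie on both sides of 0, 7 higher and 10 lower.

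Of 11 NADPH-generating enzymes 2 passed as higher and 2 as lower, 36.4% against 43.5% of all genes, without a DEG. Me1 (-0.96) and G6pdx (-0.64), the cytosolic malic enzyme and the entry of the pentose phosphate pathway, fell, and Me3 (0.70) and Aldh1l1 (0.98) rose. Of 10 tested genes of the NADH shuttles and lactate dehydrogenases, 1 passed as higher and 2 as lower, 30% against 43.5% of all genes, and all 3 were DEGs (30% against 24.3%). Both glycerol phosphate dehydrogenases were DEGs, lower in AR113Q muscle, Gpd1 at -1.88 (SE 0.24, limma adjusted p = 0.000683, -2.39 on slide 2) and Gpd2 at -1.25 (SE 0.17, limma adjusted p = 0.000876, -1.52 on slide 2). Gpd2 was no DEG with normexp correction (-0.86) or in the authors' table (-0.75). Got1, the cytosolic aspartate aminotransferase of the malate-aspartate shuttle, was a DEG at 1.22 (SE 0.26, limma adjusted p = 0.00711), and 0.79 on slide 2. It read 13.51, 13.88, 14.06 and 13.54 in WT mice and 14.66, 14.66 and 15.56 in AR113Q mice, without overlap, and within each genotype it was highest in the mice with the high slow-fiber marker sums, a relation that was not tested. For Ldha, the muscle lactate dehydrogenase subunit, the brightest probe read -0.39 (limma adjusted p = 0.116) and the other 2 kept probes were DEGs at -2.06 and -1.95, so the call depends on the probe. Ldhb, known from oxidative fibers, was 11.32, 13.11, 12.87 and 11.27 in WT mice and 10.86, 11.51 and 14.40 in AR113Q mice, high in the 3 mice with the high slow-fiber marker sums, a relation that was not tested.

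The last group held genes reported to regulate or bind Nmrk2, among them the subunits of AMP-activated protein kinase (AMPK), the cell's energy sensor. Of 11 tested genes 1 passed as higher and 6 as lower, so that 63.6% passed against 43.5% of all genes, and 54.5% were lower against 22.5%, with a median of -0.55. The 3 DEGs were 27.3% of the group, near the 24.3% of all genes. The catalytic subunit Prkaa2, the form typical of muscle, was 12.32, 12.42, 12.35 and 12.15 in WT mice and 11.29, 10.73 and 10.90 in AR113Q mice, a DEG at -1.34 (SE 0.18, limma adjusted p = 0.000859), and -1.13 on slide 2. The muscle regulatory subunit Prkag3 was 10.51, 9.84, 10.21 and 10.37 against 7.52, 8.59 and 7.52, a DEG at -2.36 (SE 0.30, limma adjusted p = 0.000692), 5.12-fold lower, and -2.33 on slide 2. Prkab2, the beta subunit enriched in muscle, was a DEG at -1.07 (SE 0.18, limma adjusted p = 0.00230), but -0.64 on slide 2, and with normexp correction (-0.96) or in the authors' table (-0.95) no DEG. The other subunits were not DEGs. Prkab1 passed as higher at 0.92 and Prkag2 as lower at -0.89, while Prkaa1 (-0.28) and Prkag1 (-0.04) did not pass.

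**Figure D4:**
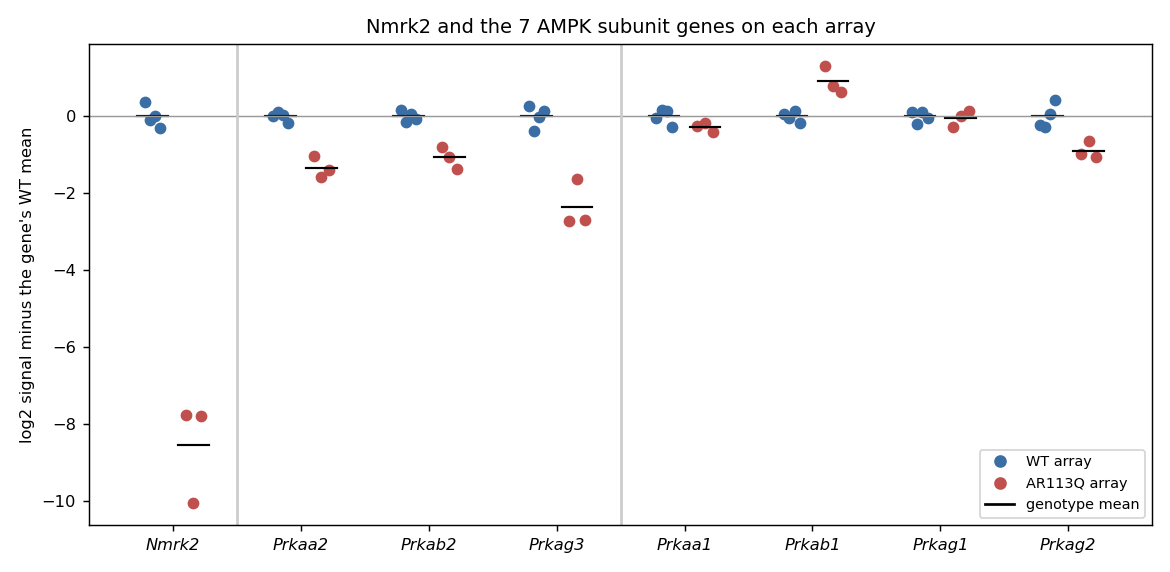
Log2 signal minus the gene's WT mean (vertical axis) for Nmrk2 and the 7 AMPK subunit genes, 1 point per array, with lines at the genotype means. Prkaa2, Prkab2, Prkag3, Prkag2 and Prkaa1 lay below 0 in all 3 AR113Q mice, the last without passing the test, and all on a far smaller scale than Nmrk2.

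Srf, the serum response factor, passed at -0.72 (limma adjusted p = 0.0149) and Itga7, a subunit of the laminin-binding integrin that Nmrk2 is known to bind, at -0.55 (0.0206). Its partner Itgb1 had a value of 0.14 and overlapped. Ppara, a nuclear receptor of fatty acid oxidation, read 1.30 by its brightest probe (limma adjusted p = 0.0691), and its other 2 kept probes passed, one as a DEG at 1.26 with overlapping groups and -0.08 on slide 2, the other at 0.88 without overlap and 0.38 on slide 2. The brightest Ppara probe was 7.67, 9.94, 8.99 and 8.77 in WT mice and 9.68, 9.87 and 10.89 in AR113Q mice, with overlap, and its difference on slide 2 was -0.25.

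**Figure D5:**
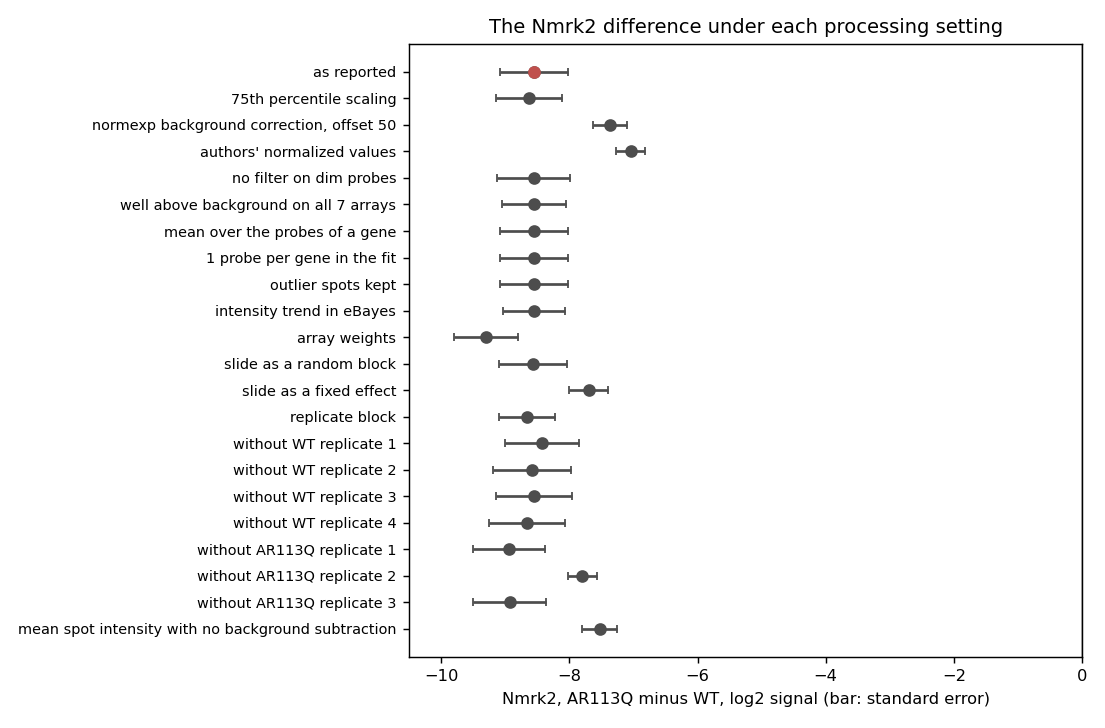
The Nmrk2 difference, AR113Q minus WT in log2 signal (horizontal axis), with its standard error, as reported and under each alternative processing. All 22 values lay between -9.30 and -7.04.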

How the data were processed

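RNA of 7 mice was measured on Agilent mouse gene expression arrays, and the submitters' processing notes name Feature Extraction 10.7.3.1. The authors deposited, per array, an intensity for each spot, background-subtracted and not normalized between arrays, and a table of log2 values for 18592 probes, which the methods describe as quantile normalized; all of them matched a probe. Background subtraction widens the spread of dim spots on a log scale, which affects the size of large differences. The background-subtracted intensities were put on a log2 scale, control spots were removed, which left 43020 spots per array, the 94 to 151 of these flagged as outliers were set to missing, and the remaining signals were quantile normalized and averaged over the spots of a probe. AR113Q was set against WT in limma 3.58.1 under R 4.3.3, with lmFit and then eBayes, without covariates and two-sided. The RefSeq gene table of GRCm38.p6 named 28330 probes by accession, and other names came from the array annotation. Probe positions are on mm9.

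The members, gene lists and tests were chosen with earlier results of these data known. Named genes were every member probe, up to 3 DEGs per direction and list with the largest change, the 2 genes on either side of Nmrk2, and the 5 nearest profiles. The remaining genes were named to complete a family or a list. Marker lists covered 9 cell types, and genes not kept were left out of their sums. 1 gene and 1 marker are not reported here. The fit was tested on simulated data. The number of arrays, 4 and 3, limits the precision. Replicate numbers were not taken as pairs, since the labels state no pairing. Same-numbered arrays deviated together with r of 0.04, -0.02 and 0.16. The last was the highest of any WT and AR113Q combination, so these values cannot exclude a pairing.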

Additional observations from a re-analysis of the deposited data

Results flagged for a closer look

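Among 24 genes examined for a WT array far from the other 3 by Dixon's criterion, 2 were found, and chance alone gives about 1 in 20. Nampt was 11.79 in WT 1, against 12.07 to 12.09 in the other WT mice, with a gap of 0.93 of the range. Nadk was 9.55 in WT 4, against 9.12 to 9.19 in the others, with a gap of 0.84 of the range. Without WT 1 the Nampt difference was -0.44, and without WT 4 the Nadk difference was 0.10, and neither passed the limma test.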

How the results depend on the processing

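The Nmrk2 difference stayed between -9.30 and -7.04 in all 22 settings. It was -7.36 with normexp correction, -7.04 with the authors' values and -7.52 with mean intensities without background subtraction, the last chosen after seeing the data. Leaving out 1 array gave -8.94 to -7.80. Of the other members, 1 was a DEG as reported, 2 with scaling to the 75th percentile (Nmrk1 and Nnt), 0 with normexp, the authors' values, mean intensities or slide as a fixed effect, and 3 without the fold threshold (Nadsyn1 in addition). Beside those counts of 0, limma gave unadjusted p-values under 0.05 for 5, 4, 5 and 2 members. Leaving out 1 array gave 0 to 2, with 0 without WT 1 or AR113Q 2 (4 and 3 at an unadjusted p under 0.05), 2 without WT 2 and Nnt in place of Nmrk1 without AR113Q 1. Of the 78 NAD-related genes, 7 were DEGs upward, 4 with the authors' values, 0 with slide as a fixed effect and 15 without the fold threshold, and 7 to 9 when 1 array was left out. Downward they were 10, 4 with normexp, 4 with the authors' values, 5 with mean intensities, 0 with slide as a fixed effect and 22 without the threshold, and 10 to 13 when 1 array was left out. Under the fixed slide effect, where slide 2 alone informs the comparison, 6 and 21 of them had an unadjusted p under 0.05 in limma. The cause of the other changes was not tested. The authors' values covered 75 of the 78 NAD-related genes and 14885 genes in all.

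Across all genes the DEGs numbered 4032 as reported, 1752 with normexp, 1364 with the authors' values and 0 with slide as a fixed effect, where none passed the test (6158 at an unadjusted p under 0.05 in limma). With the replicate number as a block 1 member was a DEG, 7 and 10 NAD-related genes were, and the Nmrk2 difference was -8.66, so no such count moved. Of 483 values of 23 single genes, 450 kept their direction and their side of the adjusted p threshold, whatever the fold change, 23 no longer passed, 3 newly passed and 7 changed sign. Those were Nmnat3 with slide as a fixed effect (0.042), and Nadk with the 75th percentile (0.085), slide as a fixed effect (0.20), the replicate block (0.10) and without WT 4 (0.10), AR113Q 2 (0.03) or AR113Q 3 (0.01), leaving out 1 array giving -0.0425 to 0.0986 for Nadk. Nnt no longer passed without the filter on dim probes (limma adjusted p = 0.0762), with slide as a fixed effect or without 4 of the arrays.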
